A study of Mus musculus with 27 samples.

Results

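Gata4, Gata5 and Gata6, which encode the GATA zinc-finger transcription factors of the heart, and Zfpm1 and Zfpm2, which encode their cofactors Friend of GATA 1 and Friend of GATA 2, were followed in mouse hearts with deletions in Hand2os1, a long non-coding RNA gene next to Hand2. The 5 genes were taken by symbol from both deposited tables. All 5 were found, among 24025 genes of a bulk RNA-seq table and among 19010 gene symbols of a single-cell table. Per the labels the mice were C57BL/6, allele F lacks the whole of Hand2os1 and allele D lacks its distal end only. Whole hearts of embryonic day E11.5 gave 3 F/+ and 3 F/F bulk libraries, and ventricles of E16.5 gave 3 F/+ and 3 F/F libraries, so each embryonic bulk control itself carried 1 F allele. Cardiomyocytes of 8-week mice gave 5 +/+, 2 D/+ and 6 D/D libraries. The single-cell data were 1 +/+ and 1 F/F library, each from the living cells of 6 pooled E11.5 hearts, counted as unique molecular identifiers (UMIs). Nothing in the labels says whether bulk replicates came from separate animals or litters, so each p-value below measures only the spread between these libraries.

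GATA factors bind short DNA sites that contain the letters GATA through a pair of zinc fingers. Gata4, Gata5 and Gata6 are made in the mesoderm and endoderm of the embryo, and Gata4 and Gata6 are needed for the growth of the myocardium, for the septa and for the outflow tract. Gata5 is best known for the endocardium and the aortic valve. Friend of GATA proteins do not bind DNA on their own. They hold on to the amino-terminal zinc finger of a GATA factor and bring in corepressors, among them CtBP proteins and the NuRD chromatin remodelling complex. Zfpm2 is the partner of Gata4 in the heart and is needed for valve formation and coronary vessel growth, while Zfpm1 is known above all as the partner of Gata1 in red blood cell and megakaryocyte development.

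The promoter sequences of Gata5 and Zfpm1, the 2 of the 5 members that matched RefSeq's promoter table, are shown as context for their levels in these hearts. Each was taken as the 230 bases from 250 to 21 bases before the gene's start in RefSeq's GRCm38.p6 annotation, 5′ to 3′ on the gene's own strand. The stretch is chr2:180334700-180334929 on the minus strand for Gata5 and chr8:122281891-122282120 on the plus strand for Zfpm1. By the GENCODE spans given below, the Zfpm1 stretch ends 21 bases before its gene, but the Gata5 stretch directly adjoins its gene. The distance of the Gata5 stretch from the start is therefore uncertain. Capitals mark GC boxes and an E-box, 2 short motifs that many transcription factors bind, whose letters are given below.
Gata5: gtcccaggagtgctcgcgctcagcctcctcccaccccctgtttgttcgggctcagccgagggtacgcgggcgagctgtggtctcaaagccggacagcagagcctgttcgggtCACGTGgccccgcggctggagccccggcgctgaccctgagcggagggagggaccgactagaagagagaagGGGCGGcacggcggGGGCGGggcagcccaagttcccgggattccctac
Zfpm1: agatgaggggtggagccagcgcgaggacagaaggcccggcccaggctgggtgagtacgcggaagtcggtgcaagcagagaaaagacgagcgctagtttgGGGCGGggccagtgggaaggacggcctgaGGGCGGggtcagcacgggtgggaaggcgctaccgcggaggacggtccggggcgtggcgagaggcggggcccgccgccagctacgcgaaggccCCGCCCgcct
Both stretches were rich in G and C, at 70.4% for Gata5 and 72.2% for Zfpm1, against a median of 51.7% over 27025 promoter stretches of the same length. The GC box, GGGCGG on either strand, was found 2 times in the Gata5 stretch and 3 times in the Zfpm1 stretch, and at least once in 29.9% of all promoter stretches. The E-box, whose letters CACGTG read the same on both strands, was found once in the Gata5 stretch, not in the Zfpm1 stretch, and in 5.38% of all stretches. Neither stretch held the letters GATA on either strand, which 52.4% of all stretches did, nor the TATA box letters TATAAA, which 12.4% did. The Gata5 stretch lies within the span of the antisense gene Gata5os and the Zfpm1 stretch within that of Gm20388, with no annotated exon in either.

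The 5 genes lie on 5 chromosomes. In the GENCODE vM21 annotation of GRCm38, Gata4 spans chr14:63198922-63271692 on the minus strand, Gata5 spans chr2:180325133-180334699 on the minus strand, Gata6 spans chr18:11052064-11085635 on the plus strand, Zfpm1 spans chr8:122282141-122337251 on the plus strand and Zfpm2 spans chr15:40655035-41104592 on the plus strand.

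The bulk values were taken from their size as normalised expression levels (FPKM), and their read depth is unknown. FPKM are scaled per length, so levels are compared between genes on that reading, which was not tested. The deleted gene was listed at 0 in all 6 E11.5 bulk libraries, so it checked no genotype label there. It was at 0.37 to 1.4 FPKM in the F/+ and at 0 in the F/F ventricles, at 5.25 to 6.17 FPKM in D/+ and at 0 to 2.67 FPKM in D/D cardiomyocytes. Among the +/+ cardiomyocyte libraries it was at 0 to 13.48 FPKM, and the library labelled +/+ replicate 5 was the one at 0. Haemoglobin genes took 10.4 to 29.7% of the E11.5 totals and 0.651 to 2.42% at E16.5. The 11 cardiomyocyte markers were present in all libraries labelled cardiomyocytes, summing to 26510 to 38477 FPKM, while 11 endothelial markers still summed to 120 to 560 FPKM there. The single-cell libraries held 2563 (+/+) and 3469 (F/F) barcodes with medians of 13369 and 13403 UMIs, and 18 barcode sequences were found in both.

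In control hearts Gata5 and Zfpm1 fell, and Gata6 rose, from the E11.5 heart to the E16.5 ventricle. Gata4 was the most highly expressed member in whole E11.5 hearts, Gata6 in the E16.5 ventricle and Gata4 again in 8-week cardiomyocytes, while Zfpm2 stayed low at every stage. Whole heart, ventricle and isolated cardiomyocytes differ in their cells, so stage and tissue cannot be told apart, and in bulk samples fewer cells of a type and less RNA per cell cannot be told apart either. Fold changes are on the log2(FPKM + 1) scale, which understates changes of low genes. Of all genes tested, 48.7% passed the test between E11.5 and E16.5 controls (limma, Benjamini-Hochberg adjusted p under 0.05), 17.7% higher and 31.0% lower. The median log2 fold change over all genes was -0.18 in that comparison. After scaling of the libraries to their median ratio the median was 0.01, and the 2016 higher and 3536 lower calls became 3022 higher and 2797 lower.

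Gata5, the endocardial GATA factor, stood at 28.64, 35.61 and 25.01 FPKM in the 3 F/+ E11.5 hearts and at 0.96, 1.49 and 1.1 FPKM in the 3 F/+ E16.5 ventricles. Every ventricle was far below every E11.5 heart, and 37.2% of the genes tested also had all ventricles below all E11.5 hearts. The mean was 25.1-fold lower, with a log2 fold change of -3.81 (SE 0.19, limma adjusted p = 6.33e-06), and -3.63 after median-ratio scaling. In the 8-week controls Gata5 ranged from 0.04 to 0.15 FPKM, with a mean of 0.0929 FPKM (n = 7), and the filter on a mean of at least 1 FPKM left it out of the test. Without that filter its log2 fold change from E16.5 to 8 weeks was -0.99 (SE 0.072) and passed (limma adjusted p = 5.73e-07).

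Zfpm1, the Friend of GATA gene of the blood lineages, was at 63.07, 63.26 and 109.28 FPKM in the F/+ E11.5 hearts and at 26.6, 26.12 and 22.07 FPKM in the F/+ ventricles. All ventricles were below all E11.5 hearts, as for 37.2% of the genes tested, and F/+ replicate 3 was well above its fellows at E11.5. The mean was 3.15-fold lower at E16.5, with a log2 fold change of -1.57 (SE 0.22, limma adjusted p = 0.0006), and -1.35 after median-ratio scaling. The 8 erythroid markers were lower at E16.5 too, summing to 39215 to 136216 FPKM in the F/+ E11.5 hearts and to 131 to 300 FPKM in the F/+ ventricles. F/+ replicate 3 had the highest erythroid sum as well as the highest Zfpm1. F/+ replicates 1 and 2, with erythroid sums of 86830 and 39215 FPKM, had Zfpm1 at 63.07 and 63.26 FPKM. Among F/F E11.5 hearts the order was the other way. Replicate 2 had the lowest erythroid sum (60622.5 FPKM) and the highest Zfpm1 (91.79 FPKM). Replicate 3 had the highest sum (106620 FPKM) and the lowest Zfpm1 (80.4 FPKM). The part of erythroid RNA in the Zfpm1 difference was not tested.

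Gata6 was at 51.67, 57.67 and 52.47 FPKM in the F/+ E11.5 hearts and at 84.39, 74.42 and 71.98 FPKM in the F/+ ventricles. All ventricles lay above all E11.5 hearts, as for 22.9% of the genes tested. This was a log2 fold change of 0.50 (SE 0.12, limma adjusted p = 0.00902) and 0.73 after median-ratio scaling. Gata4 was at 82.45, 87.04 and 75.87 FPKM at E11.5 and at 71.36, 67.9 and 63.11 FPKM at E16.5. All ventricles were below all E11.5 hearts, an order that 37.2% of the genes tested also showed, but the log2 fold change of -0.27 (SE 0.12) did not pass the test (limma adjusted p = 0.0833). Without F/+ E11.5 replicate 3 it was -0.33 and passed (adjusted p = 0.0287), and after median-ratio scaling it was -0.05. Zfpm2, the cardiac partner of Gata4, was at 6.14, 4.78 and 3.22 FPKM at E11.5 and at 6.13, 5.76 and 5.84 FPKM at E16.5. Its groups overlapped, and the log2 fold change was 0.31 (SE 0.22, adjusted p = 0.28).

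Between the E16.5 ventricles and the 8-week control cardiomyocytes, 73.7% of all genes tested passed the test, 27.4% higher and 46.3% lower, with a median log2 fold change of -0.31, or 0.03 after median-ratio scaling. With that scaling the 2982 higher and 5039 lower calls became 3945 higher and 3656 lower. These comparisons share the E16.5 libraries with the ones above. Gata6 was at 33.63, 28.92, 42.93, 41.24 and 48.45 FPKM in the +/+ and at 33.39 and 42.96 FPKM in the D/+ cardiomyocytes, all below the 3 ventricles, as for 42.6% of the genes tested. The change was -0.99 on the log2 scale (SE 0.16, limma adjusted p = 0.000123), and -0.60 after median-ratio scaling. Zfpm1 was at 14.79, 13.55, 17, 19.26 and 28.01 FPKM in +/+ and at 12.2 and 18.17 FPKM in D/+ cardiomyocytes. The highest value, from +/+ replicate 5, was above every ventricle, while the other 6 were below.

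The Zfpm1 log2 fold change of -0.52 (SE 0.21) passed the test by a small margin (limma adjusted p = 0.0402). It did not pass after median-ratio scaling (-0.14, adjusted p = 0.594) or against +/+ libraries alone (-0.45, adjusted p = 0.0885), and without +/+ replicate 5 it was -0.64 (adjusted p = 0.00152). Gata4 was at 61.2, 53.28, 57.07, 57.73 and 50.28 FPKM in +/+ and at 49.53 and 64.95 FPKM in D/+ cardiomyocytes, which overlapped the ventricles. Its log2 fold change of -0.26 (adjusted p = 0.0507) turned to 0.13 after median-ratio scaling. Zfpm2 ranged from 3.54 to 8.07 FPKM, around the ventricles' 5.76 to 6.13 FPKM, with a log2 fold change of -0.01.

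The order of the levels, which rests on the values being FPKM, differed by stage. In F/+ E11.5 hearts the means ± SD (n = 3) were 81.8 ± 5.61 FPKM for Gata4, 78.5 ± 26.6 for Zfpm1, 53.9 ± 3.26 for Gata6, 29.8 ± 5.39 for Gata5 and 4.71 ± 1.46 for Zfpm2. Gata4 and Zfpm1 overlapped there, and no other neighbours in that order did. In F/+ ventricles Gata6 led at 76.9 ± 6.57 FPKM, followed by Gata4 at 67.5 ± 4.14, Zfpm1 at 24.9 ± 2.49, Zfpm2 at 5.91 ± 0.195 and Gata5 at 1.18 ± 0.275, and no neighbours overlapped, although the lowest Gata6 value (71.98) was just above the highest Gata4 value (71.36). In +/+ cardiomyocytes (n = 5) Gata4 stood at 55.9 ± 4.22 FPKM, Gata6 at 39.0 ± 7.75, Zfpm1 at 18.5 ± 5.73, Zfpm2 at 5.70 ± 1.65 and Gata5 at 0.080 ± 0.0480, and no 2 neighbours in that order overlapped.

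**Figure D1:**
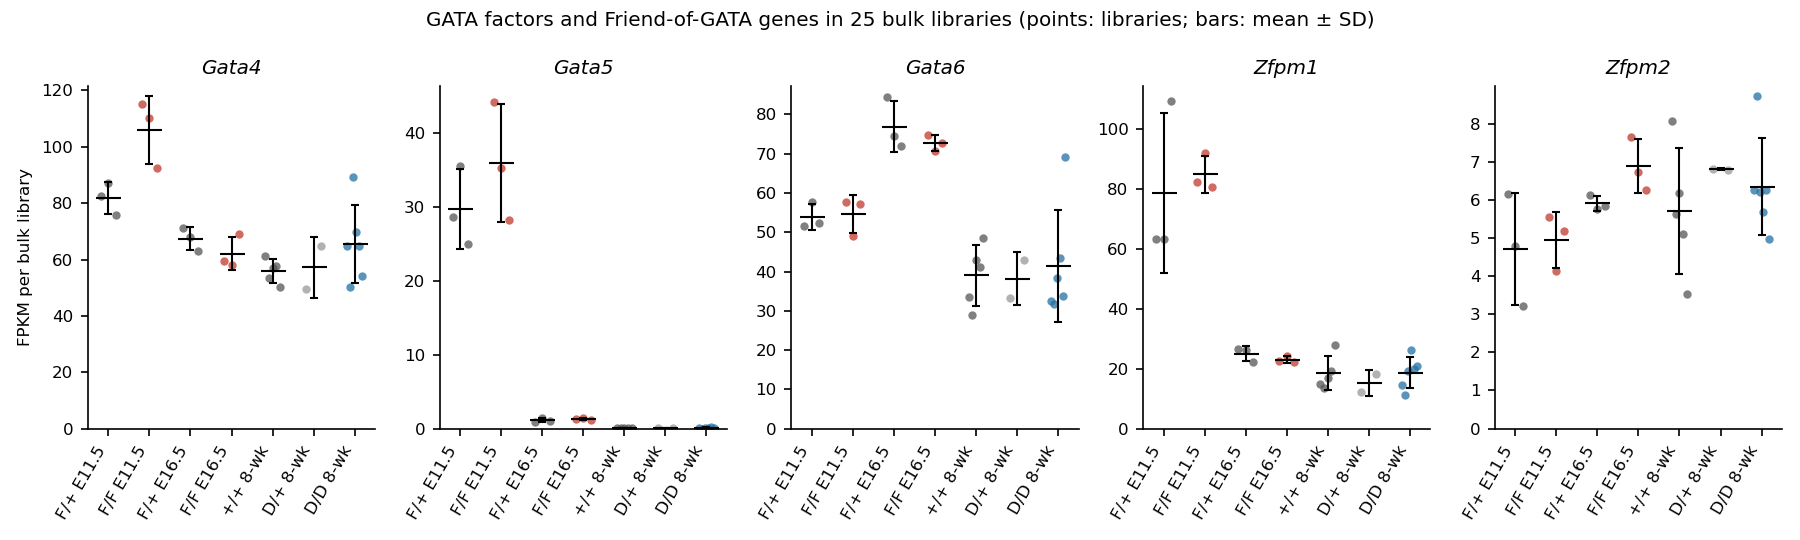
FPKM of each member (vertical axis, one panel per gene) in the 25 bulk libraries by group; points are libraries and bars the mean ± SD of a group. Gata5 lies between 25.01 and 44.18 FPKM at E11.5 and does not exceed 1.49 FPKM in any later library, while the F/F points of Gata4 at E11.5 all lie above the F/+ points.

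The bulk comparison of F/F with F/+ asked whether loss of the second copy of Hand2os1 moved these genes. None of the 5 members passed the test at E11.5, where 0.0087% of all genes tested did (1 of 11491). Gata4 was at 82.45, 87.04 and 75.87 FPKM in F/+ and at 115.17, 110.37 and 92.32 FPKM in F/F hearts. Every F/F heart was above every F/+ heart, an order that 4.93% of the genes tested showed in the same direction. The means were 81.8 and 106 FPKM, a ratio of 1.30, and the log2 difference was 0.37 (SE 0.15, interval 0.026 to 0.70, unadjusted p = 0.0374, limma adjusted p = 0.999). At an unadjusted p under 0.05, 502 genes (4.37%) were reached in this comparison.

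Cell type markers also differed between these E11.5 groups. The 11 cardiomyocyte markers summed to 12194 to 14269 FPKM in F/+ and to 14653 to 17075 FPKM in F/F hearts, with a higher mean in F/F for 10 of the 11 and none at 0. The 11 endothelial markers summed to 344 to 379 FPKM in F/+ and to 407 to 438 FPKM in F/F hearts, with a higher mean for 9 of the 11 and none at 0. The 12 mesenchymal markers summed to 477 to 643 FPKM and 434 to 504 FPKM, and 2 of the 12 had a higher mean in F/F. The part of the cell mixture in the Gata4 difference was not tested.

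The other members had smaller log2 differences between F/F and F/+ hearts at E11.5, and all of them overlapped. Gata5 was at 28.64, 35.61 and 25.01 FPKM in F/+ and at 44.18, 35.35 and 28.27 FPKM in F/F hearts (log2 difference 0.26, SE 0.21). Gata6 was at 51.67, 57.67 and 52.47 FPKM against 57.62, 48.99 and 57.09 FPKM (0.01, SE 0.15). Zfpm1 was at 80.4 to 91.79 FPKM in F/F hearts, inside the wide F/+ range of 63.07 to 109.28 FPKM (0.16, SE 0.22), and Zfpm2 was at 4.13 to 5.54 FPKM in F/F against 3.22 to 6.14 FPKM in F/+ (0.08, SE 0.29). The limma adjusted p was 0.999 for each of them. The only gene called at E11.5 was Mir6236, named after its values were seen (log2 difference 14.18, adjusted p = 1.5e-09).

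In the E16.5 ventricles none of the members passed either, against 0.00935% of all genes tested (1 of 10699, again Mir6236, here lower by a log2 difference of -5.05, adjusted p = 0.00481). Gata4 was at 71.36, 67.9 and 63.11 FPKM in F/+ and at 59.4, 58.02 and 69.01 FPKM in F/F ventricles, which overlapped (log2 difference -0.12, SE 0.094). Zfpm2 was at 6.13, 5.76 and 5.84 FPKM in F/+ and at 7.65, 6.74 and 6.27 FPKM in F/F ventricles. All F/F values of Zfpm2 were above all F/+ values, as for 3.9% of the genes tested, with a log2 difference of 0.19 (SE 0.12). Gata6, Gata5 and Zfpm1 overlapped, with log2 differences of -0.08, 0.06 and -0.11, and the adjusted p of every member was 0.99993 (limma), with 281 genes (2.63%) at an unadjusted p under 0.05. Y-linked genes were present in 3 of 3 F/F and 1 of 3 F/+ ventricles, and a fit with a covariate for them is given in the closing section.

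Whether the F effect differed between the stages was tested as an interaction. Gata4 had the lowest interaction value of the members, -0.48 (SE 0.17, interval -0.86 to -0.11, unadjusted p = 0.0147), with F/F means above F/+ at E11.5 and below at E16.5. It did not pass after adjustment (limma adjusted p = 0.999), in a test that 0.00875% of all genes passed (1 of 11423) and in which 4.32% had an unadjusted p under 0.05. The other members had interaction values of -0.20 (Gata5), -0.09 (Gata6), -0.26 (Zfpm1) and 0.10 (Zfpm2). With 1 library left out these ran from -0.36 to -0.0435 for Gata5, from -0.17 to -0.0236 for Gata6 and from -0.52 to -0.13 for Zfpm1, lowest without F/+ E11.5 replicate 3.

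In the 8-week cardiomyocytes, the distal deletion D/D was compared with +/+ and D/+ together. No gene passed the test there (0 of 10249, 0.0%), although 175 genes (1.71%) had an unadjusted limma p under 0.05. Gata4 ranged from 50.42 to 89.28 FPKM in the 6 D/D libraries with a median of 64.8, and from 49.53 to 64.95 FPKM in the 7 control libraries. The 3 highest D/D libraries were at 89.28, 69.64 and 64.79 FPKM, and the groups overlapped (log2 difference 0.20, SE 0.13, limma adjusted p = 0.99993). Gata6 ranged from 31.69 to 69.18 FPKM in D/D with a median of 36.1 and from 28.92 to 48.45 FPKM in controls (0.06). Zfpm1 ranged from 11.22 to 26.16 FPKM in D/D with a median of 19.4 (0.08), and Zfpm2 from 4.96 to 8.71 FPKM with a median of 6.23 (0.08). Gata5 was at 0 to 0.21 FPKM in D/D cardiomyocytes and was not tested. Without +/+ replicate 5, the values were 0.17 for Gata4, 0.11 for Gata6, 0.19 for Zfpm1 and -0.02 for Zfpm2.

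Gata6 and Zfpm1 also differed between sets of 8-week libraries that cut across genotype. A set of 5 libraries that clustered together over all genes (replicates 1 and 2 of +/+, 1 of D/+, and 1 and 2 of D/D, grouped after the data were seen) had Gata6 at 28.92 to 33.63 FPKM and Zfpm1 at 11.22 to 14.79 FPKM. The other 8 libraries had Gata6 at 33.85 to 69.18 FPKM and Zfpm1 at 17 to 28.01 FPKM, so the sets did not overlap in either gene, with the set of 5 lower, as for 4.56% of the 10249 genes examined. The sets were formed from all genes, these included, so the values are a description. Gata4 and Zfpm2 overlapped between the sets. Within the set of 5, mean Gata6 was 31.98 FPKM in controls and 32.11 FPKM in D/D, and in the other set 43.9 and 46.2 FPKM. Mean Zfpm1 was 13.5 and 12.9 FPKM in the set of 5 and 20.6 and 21.5 FPKM in the other set. The first principal component split the libraries otherwise: replicates 3 and 4 of +/+, 2 of D/+ and 3 of D/D stood with the 5. Between those sets Gata6 overlapped, at 28.92 to 42.96 and 33.85 to 69.18 FPKM. Zfpm1 did not, at 11.22 to 19.26 and 19.74 to 28.01 FPKM. The labels give no batch for these libraries.

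**Figure D2:**
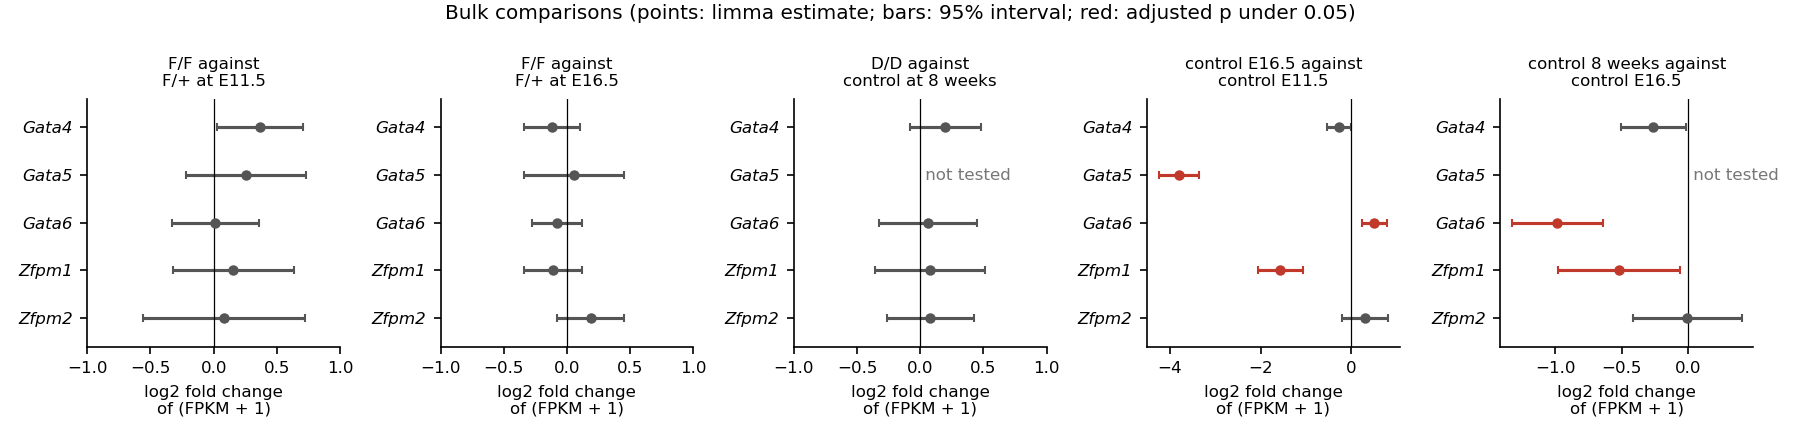
Log2 fold change of (FPKM + 1) of each member (horizontal axis; the axes of the 2 stage panels have other ranges) in the 5 bulk comparisons, with points for the limma estimate and bars for the 95% interval. Red marks an adjusted p under 0.05: Gata5, Gata6 and Zfpm1 between E11.5 and E16.5 controls, Gata6 and Zfpm1 between E16.5 and 8 weeks, and no member between genotypes.

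The partners and reported targets of these factors were followed as lists. No gene of any list passed the test between genotypes at any stage or in the interaction. At E11.5, 13 of 20 cardiac partners and 16 of 25 reported targets had a positive log2 difference, with medians of 0.13 and 0.16 against 0.02 over all genes. Their extremes were Tbx20, a T-box factor (0.49), and Nfatc4 (-1.02) among the partners, and the atrial light chain gene Myl7 (0.43) and the neuregulin receptor gene Erbb3 (-0.56) among the targets. At E16.5 the partner list ran from Nr2f2 (0.14) to Hand2 (-0.20), and at 8 weeks from Hand2 (0.48) to Mef2a (-0.30).

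Between stages, the counts for these lists stand beside those for all genes, of which 17.7% rose and 31.0% fell from E11.5 to E16.5, and 27.4% rose and 46.3% fell from E16.5 to 8 weeks. In the first step 5 of 19 cardiac partners rose and 6 fell, with a list median of -0.09 against -0.18 over all genes, among them Mef2d (1.82) and Mef2a (1.58), MADS-box factors of muscle, Myocd (1.14), the coactivator myocardin, and Smad4 (-1.49). After median-ratio scaling 9 rose and 4 fell. Of 26 reported targets 8 rose and 12 fell, with a list median of 0.18, including Nppb (-4.99), Myl7 (-3.36), Wnt2 (-2.88) and Myl2 (-2.76). With the scaling 10 targets rose and 9 fell, with a list median of 0.38. From E16.5 to 8 weeks none of 19 partners rose and 10 fell, with a list median of -0.49 against -0.31 over all genes, led by Hand1 (-3.29) and Tbx20 (-2.49), while after median-ratio scaling 3 rose and 7 fell. Of 25 targets 10 rose and 10 fell, with a list median of -0.31, and with Nppb (5.71), Myl2 (4.97) and Myh6 (4.42) higher and the fetal myosin Myh7 (-4.00) lower. With the scaling 10 targets rose and 6 fell, with a list median of 0.09.

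The corepressor genes of the Friend of GATA proteins were followed between stages too. Of 14 NuRD and CtBP genes, 1 rose and 7 fell from E11.5 to E16.5, with Gatad2b (-3.23), a GATA zinc-finger subunit of NuRD, the lowest, followed by Mta2 (-1.51) and the histone deacetylase gene Hdac1 (-1.04). The list median was -0.37 against -0.18 over all genes, of which 17.7% rose and 31.0% fell. From E16.5 to 8 weeks 2 rose and 12 fell, including Rbbp7 (-2.28), Ctbp2 (-2.15) and Hdac1 (-1.98), with Gatad2b higher (2.88) and a list median of -0.94 against -0.31 over all genes, of which 27.4% rose and 46.3% fell. After median-ratio scaling the counts were 2 higher and 3 lower in the first step and 2 higher and 7 lower in the second.

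The blood-lineage partners and targets of Gata1 and Zfpm1 had the lowest list median in the first step. Of 18 genes 2 rose and 15 fell from E11.5 to E16.5, where 17.7% of all genes tested rose and 31.0% fell. The list median was -3.60 against -0.18 over all genes. After median-ratio scaling the list counts were the same, and the medians were -3.39 and 0.01. Slc4a1 (-6.17), the red cell anion exchanger, Hemgn (-5.84), Klf1 (-5.10), the erythroid Krüppel-like factor, and the platelet factor gene Pf4 (-4.69) had the largest changes. Gata1 itself fell by 4.15 on the log2 scale, from a mean of 18.6 FPKM to 0.03 FPKM, and Gata3 fell by 1.51.

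The single-cell libraries showed which cells of the E11.5 heart held each member. Clustering, done without the 5 members, gave 17 clusters over 2503 +/+ and 3368 F/F cells, which were named from marker genes. Clusters 2 and 14 met no name: cluster 2 was led by Stmn2, Klf2 and Aqp1 and held 10 of 11 endothelial markers, none of them among its top 10 genes, and cluster 14 was led by Rgs5, Eln and Isl1. Levels are counts per 1000000 UMIs of a class (CPM). They come from the 3′ ends of transcripts, with no length scaling, so they are compared between classes and not between genes. With 1 library per genotype, all intervals cover counting error only.

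Gata4 had its highest +/+ level in cluster 2, at 267 CPM, followed by mesenchymal cells at 191 CPM, which at this stage include the cushions that form the valves. Atrial cardiomyocytes were at 148 CPM, epicardial cells at 120, endothelial cells at 108, cluster 14 at 108, outflow tract and second heart field cells at 91.2 and ventricular cardiomyocytes at 83.1. Neighbours in this order below mesenchymal cells had overlapping intervals. Erythroid cells were at 3.26 CPM, which can be read as the level of free RNA. After thinning to 5000 UMIs per cell, 58.2% of mesenchymal, 35.2% of ventricular and 2.17% of erythroid +/+ cells held a Gata4 UMI, and without thinning 88.7%, 67.0% and 4.39%.

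Gata6 was highest in cluster 14, at 376 CPM in +/+, then in mesenchymal cells (281) and atrial cardiomyocytes (272), whose intervals overlapped. It was lower in outflow tract cells (187 CPM), epicardial cells (169), cluster 2 (143), ventricular cardiomyocytes (90.5) and endothelial cells (77.3), and at 2.68 CPM in erythroid cells. Outside the heart classes, the 13 hepatocyte-like cells of the +/+ library had Gata6 at 40.6 CPM, and no cell of the F/F library fell in that class.

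Gata5 was highest in cluster 14 (94.7 CPM), cluster 2 (93.8) and atrial cardiomyocytes (93.8), whose intervals overlapped. Mesenchymal, endothelial, epicardial and outflow tract cells lay between 33.3 and 41.9 CPM, and ventricular cardiomyocytes at 11.3 CPM were the lowest heart class. In erythroid cells Gata5 was at 1.16 CPM in +/+ and 1.98 CPM in F/F (log2 ratio 0.77, interval -0.12 to 1.72).

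Zfpm1 had another distribution, with levels in blood cells as well as in the heart classes. Megakaryocyte cells led at 151 CPM in +/+ (44 UMIs in 14 cells), and the class named for macrophages was at 79.3 CPM and erythroid cells at 34.1 CPM. The class named for macrophages was a mixture. Its +/+ cells with a Gata1 UMI had Zfpm1 at 121 CPM and those without at 15.8 CPM. Among heart classes cluster 2 (60.7 CPM), cluster 14 (54.5) and mesenchymal cells (54.2) were highest, and ventricular cardiomyocytes (14.9) and epicardial cells (18.9) lowest. Zfpm2 gave few UMIs: it was at 9.36 CPM in +/+ ventricular cardiomyocytes (66 UMIs), 7.91 CPM in epicardial cells and 4.15 CPM in mesenchymal cells, against 0.289 CPM in erythroid cells.

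**Figure D3:**
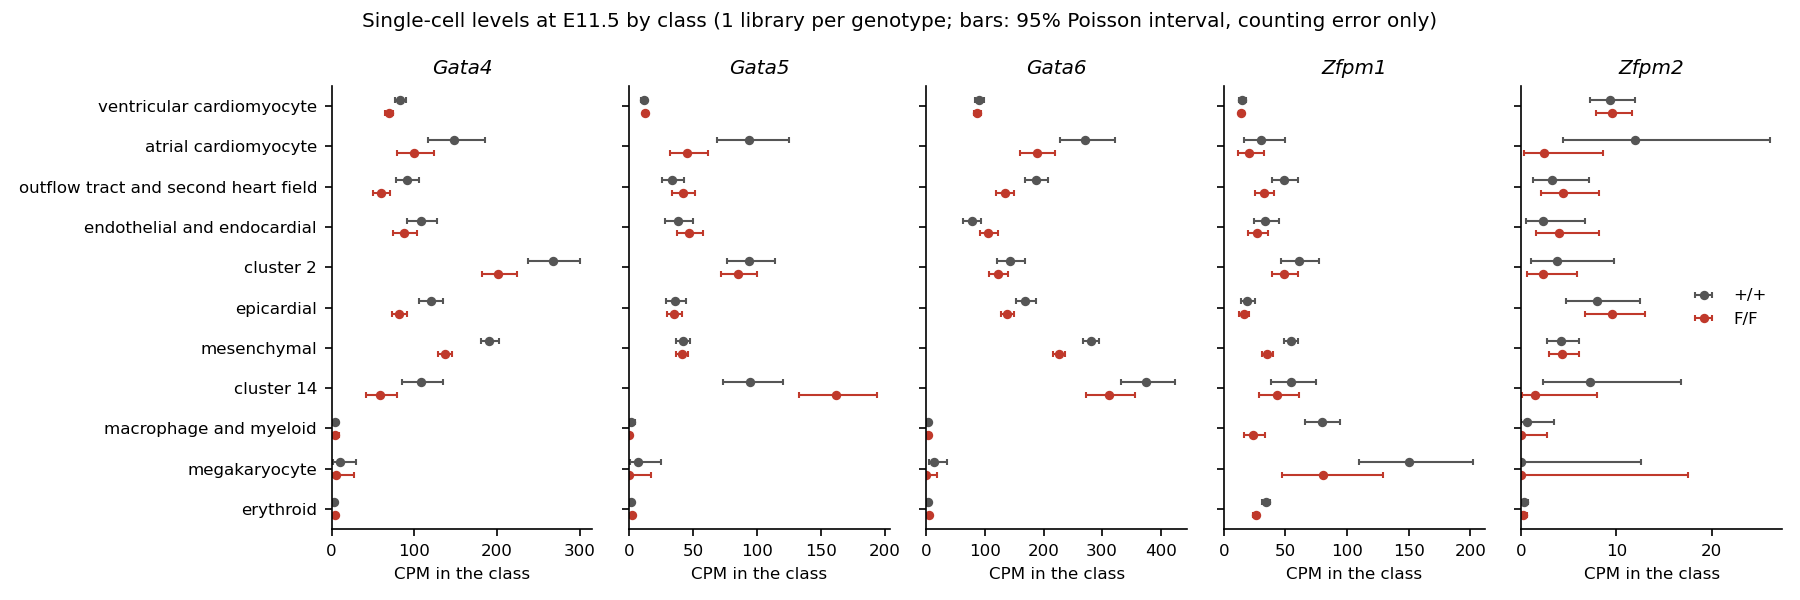
Level of each member in the E11.5 single-cell classes (horizontal axis, counts per 1000000 UMIs of the class, CPM), grey for the +/+ and red for the F/F library, with exact 95% Poisson intervals that cover counting error only. Gata4, Gata5 and Gata6 are near 0 in the erythroid and macrophage classes, where Zfpm1 is at 34.1 and 79.3 CPM in +/+. The macrophage class is a mixture, and its +/+ cells without a Gata1 UMI have Zfpm1 at 15.8 CPM.

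The GATA factors had like patterns over 30 pairs of cluster and library with at least 30 cells each, blood clusters included. This is described here by Pearson's r of log2(CPM + 1). It was 0.96 between Gata4 and Gata6, 0.94 between Gata5 and Gata6 and 0.92 between Gata4 and Gata5. Zfpm2 came next to Gata4 (0.82), while Zfpm1 ranged from 0.091 to 0.25 with the GATA factors and was at -0.24 with Zfpm2. These points share libraries and differ in depth and cell makeup. In the blood clusters Gata4, Gata5 and Gata6 were near 0, so r in part sets heart against blood. Among +/+ heart classes Gata4 was highest in cluster 2 (267 CPM), where Gata6 was at 143 CPM. Gata6 was highest in cluster 14 (376 CPM), where Gata4 was at 108 CPM. No r was computed for heart clusters alone. Among 8426 genes, the most alike over the same points were Fstl1 (0.986), Tead2 and Igf2 for Gata4, Wbp1 (0.964), Map1b and Meg3 for Gata5, and Zfp618 (0.989), Gpx8 and Tgfb2 for Gata6. For Zfpm1 they were St3gal5 (0.768), Tgfb1 and Wdr70, and for Zfpm2 Tead1 (0.910), Mcc and Capn6.

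The share of cells with UMIs of both Gata4 and Gata6 was set beside the product of their separate shares. In thinned +/+ mesenchymal cells 40.6% held a UMI of both, against 40.3% for the product of the shares, and in F/F 35.0% against 32.3%. In ventricular cardiomyocytes 17.3% of +/+ cells held both, against 13.5%, and 11.3% of F/F cells, against 11.2%.

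Between the single-cell libraries, Gata4 was lower in F/F than in +/+ in 8 of 8 heart classes, and the counting interval left out a ratio of 1 in 7 of them. Of all genes compared in a heart class, 85.3% (ventricular cardiomyocytes) to 99.5% (cluster 14) had a higher ratio than Gata4. How many other genes were lower in every heart class was not examined. In mesenchymal cells Gata4 was at 191 CPM in +/+ (1196 UMIs) and 137 CPM in F/F (998 UMIs), a log2 ratio of -0.48 (interval -0.60 to -0.36). The +/+ and F/F levels were 83.1 and 69.2 CPM in ventricular cardiomyocytes (-0.26, interval -0.42 to -0.11), 120 and 81.7 CPM in epicardial cells (-0.55) and 91.2 and 59.6 CPM in outflow tract cells (-0.61). Cluster 14 had the lowest log2 ratio, -0.88 (107.6 and 58.6 CPM), and endothelial cells, at 108 and 87.8 CPM, had the interval that included a ratio of 1. In erythroid cells Gata4 was at 3.26 and 4.17 CPM.

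These ratios have no test, since each genotype had 1 library, and a difference between 2 libraries cannot be told apart from one between the genotypes. After thinning, 58.2% of +/+ mesenchymal cells (interval 53.4 to 62.9%) and 50.3% of F/F mesenchymal cells (45.8 to 54.9%) held a Gata4 UMI, and 2.17% and 2.64% of erythroid cells. Over all cells the log2 ratio of Gata4 was -0.37 (interval -0.45 to -0.30), against a log2 difference of 0.37 in the E11.5 bulk hearts, where the controls were F/+ rather than +/+. Neither value was tested against the other.

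Gata6 was lower in F/F in 7 of 8 heart classes, with 5 intervals that left out a ratio of 1. The epicardial ratio (-0.29) was among the 5 but changed sign after thinning, as given in the closing section. In ventricular cardiomyocytes the median over all genes was -0.05, and 52.7% of genes had a higher ratio than Gata6. That share was 90.4% in mesenchymal and 96.4% in outflow tract cells, and 1.21% in endothelial cells. The Gata6 level was 281 CPM in +/+ and 226 CPM in F/F mesenchymal cells (log2 ratio -0.31, interval -0.41 to -0.21), 187 and 134 CPM in outflow tract cells (-0.48), 272 and 189 CPM in atrial cardiomyocytes (-0.53) and 90.5 and 86.7 CPM in ventricular cardiomyocytes (-0.06). Endothelial cells were higher in F/F, at 77.3 and 105 CPM (0.44, interval 0.088 to 0.81). That ratio was 0.08 with coarser clustering.

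Gata5 had no common direction: it was higher in 4 heart classes and lower in 4. In cluster 14 it was at 94.7 CPM in +/+ (66 UMIs) and 162 CPM in F/F (113 UMIs), a log2 ratio of 0.77 (interval 0.32 to 1.23). In mesenchymal cells it was at 41.9 and 41.5 CPM, and in ventricular cardiomyocytes at 11.3 and 12.6 CPM. Atrial cardiomyocytes, with 42 and 68 cells, were at 93.8 and 45.1 CPM (-1.06), a ratio that turned to 0.07 with coarser clustering and to 0.13 without doublet removal. In that class 6 of 11 reported targets were at least 1.5-fold higher in F/F and 1 was lower. Nppa, among the higher ones, was at 204 and 810 CPM. The part of the cell mixture in the atrial ratios of Gata4, Gata5 and Gata6 was not tested.

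Zfpm1 was lower in F/F in 8 of 8 heart classes, with 2 intervals that left out a ratio of 1, and in 3 of 3 blood classes, with 3 such intervals. Of all genes compared in a heart class, 52.4% (ventricular cardiomyocytes) to 98.7% (mesenchymal cells) had a higher ratio than Zfpm1. The all-gene median of the ventricular class was -0.05. Within that class the log2 ratio was 0.03 in cluster 4 (280 +/+ and 344 F/F cells) and -0.36 in cluster 5 (157 and 387 cells). Both intervals included a ratio of 1. In mesenchymal cells Zfpm1 was at 54.2 and 35.0 CPM (log2 ratio -0.63, interval -0.87 to -0.39), in outflow tract cells at 48.6 and 32.7 CPM (-0.57) and in ventricular cardiomyocytes at 14.9 and 14.3 CPM (-0.06). In erythroid cells it was at 34.1 CPM (471 UMIs) and 26.2 CPM (477 UMIs), a log2 ratio of -0.38 (interval -0.57 to -0.19), beside a median of 0.11 over all genes compared in that class. For Zfpm2 no interval left out a ratio of 1. It was at 9.36 and 9.58 CPM in ventricular cardiomyocytes (log2 ratio 0.03, interval -0.43 to 0.50) and at 4.15 and 4.24 CPM in mesenchymal cells.

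**Figure D4:**
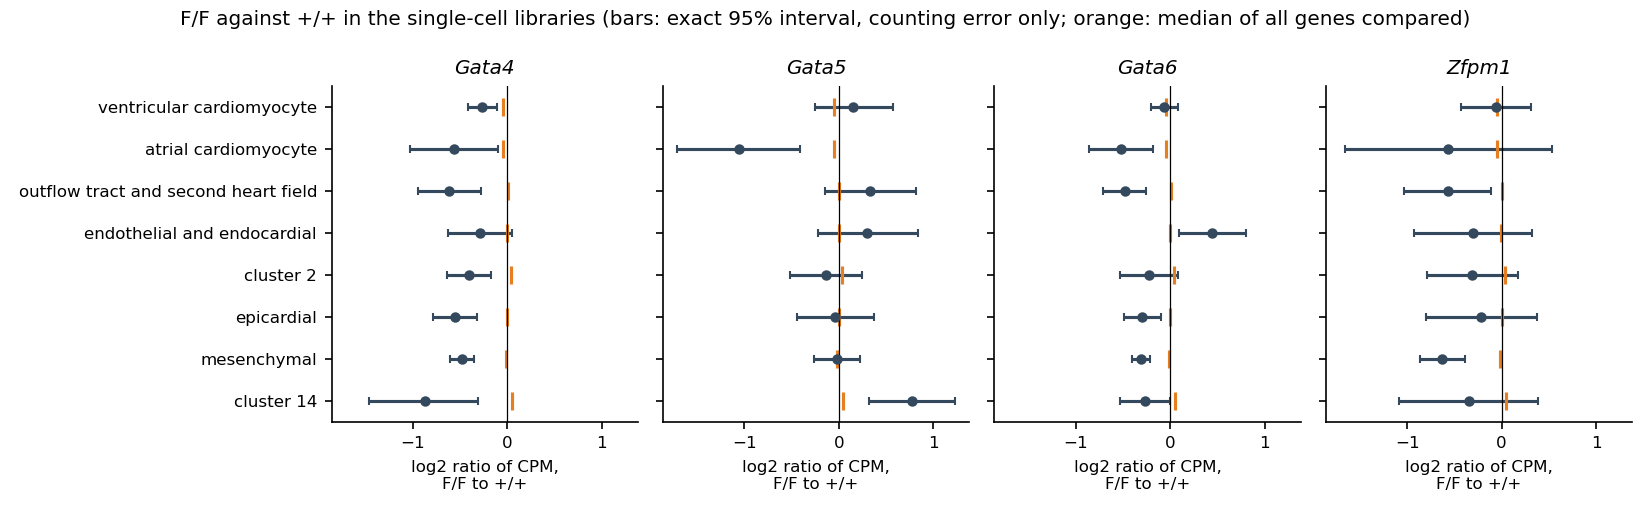
Log2 ratio of CPM in F/F to CPM in +/+ (horizontal axis) of Gata4, Gata5, Gata6 and Zfpm1 in 8 heart classes, with exact 95% intervals for counting error and an orange mark for the median of all genes compared in the class. Gata4 and Zfpm1 lie left of 0 in every class, Gata6 in 7 of 8 and Gata5 in 4 of 8.

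A change of at least 1.5-fold was rare in these classes. Of the 4 members with at least 100 UMIs in each library in mesenchymal cells, 1 (Zfpm1) was at least 1.5-fold lower, where 1.71% of all genes compared were. In outflow tract cells 1 of 2 such members (Gata4) was at least 1.5-fold lower, against 1.65% of all genes. In ventricular cardiomyocytes none of the 3 such members was, where 1.18% of all genes were lower and 0.209% higher by that fold.

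The 2 clusters of the mesenchymal class shared the direction. Cluster 8, led by Inhba, Postn and Tgfbi, had Gata4 at 200 and 126 CPM and Zfpm1 at 59.7 and 31.1 CPM in +/+ and F/F. Cluster 12, led by Msx1 and Twist1, had Gata4 at 182 and 145 CPM and Zfpm1 at 48.8 and 38.4 CPM. The Zfpm1 log2 ratio was -0.94 in cluster 8 and -0.35 in cluster 12, so only cluster 8 was past 1.5-fold.

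The lowest Zfpm1 ratio was in the class named for macrophages, 79.3 CPM in +/+ (127 UMIs) and 23.8 CPM in F/F (33 UMIs), a log2 ratio of -1.73 (interval -2.33 to -1.17). That class was a mixture. In +/+, 36 of its 63 cells held a UMI of Gata1, the erythroid and megakaryocytic GATA factor, and these cells held 117 of the Zfpm1 UMIs (121 CPM) but only 1 UMI of the macrophage complement gene C1qb. The other 27 cells held 10 Zfpm1 UMIs (15.8 CPM) and 747 C1qb UMIs. In F/F, 12 of 60 cells held a Gata1 UMI, with Zfpm1 at 69.2 CPM, and the other 48 had Zfpm1 at 9.51 CPM and 1318 C1qb UMIs. The share of cells with Gata1 thus moved with the Zfpm1 level of the class, and its part in the ratio was not tested. Without doublet removal the ratio was -0.72.

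Partners and reported targets were followed in the same cell classes. Hand2, a partner and a reported target of GATA factors and the neighbour of the deleted gene, was higher in F/F in ventricular cardiomyocytes (48.2 to 88.7 CPM), endothelial cells (106 to 252 CPM) and mesenchymal cells (97.0 to 146 CPM), as it was in cluster 2 and in epicardial cells. It was at 95.03 and 104 CPM in outflow tract cells (log2 ratio 0.13, interval -0.16 to 0.42) and at 248 and 212 CPM in cluster 14 (-0.23, interval -0.56 to 0.096), and its log2 difference in the E11.5 bulk hearts was 0.03. Of 14 NuRD and CtBP genes in ventricular cardiomyocytes, 1 was at least 1.5-fold lower (Mbd2, -0.64), and in mesenchymal cells none of 13 was past that fold, with a list median of -0.11. Of 13 reported targets in mesenchymal cells 5 were at least 1.5-fold higher, where 0.252% of all genes were. Myl7 was among them, at 82.8 CPM in +/+ and 191 CPM in F/F. In erythroid cells, however, 7 of 9 reported targets were also at least 1.5-fold higher (1.51% of all genes), and Myl7 stood there at 82.6 and 193 CPM. By that fold 2 of 19 targets were higher in ventricular cardiomyocytes, and 6 of 11 were higher and 1 lower in atrial cardiomyocytes. Higher targets were 4 of 6 in endothelial cells, 4 of 6 in cluster 2 and 2 of 10 in epicardial cells. None was higher in outflow tract cells, where 1 of 15 was lower, or in cluster 14, where 2 of 10 were lower. Gata3, the other GATA factor with enough UMIs in mesenchymal cells, was at 87.9 and 92.3 CPM, and Gata1 in erythroid cells at 52.5 and 57.7 CPM.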

How the data were processed

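The bulk table deposited by the authors gives 1 value per gene and library, taken as FPKM from the values themselves. How they were computed is not given in the sources used here. The single-cell table deposited by the authors gives raw UMI counts per gene and barcode. The submitters' processing notes name CASAVA, TopHat, TopHat2 2.0.11 and mm9, and Cell Ranger and mm10, with no role. Symbols on several lines (270) were merged. Genes averaging at least 1 FPKM were fitted as log2(FPKM + 1) with limma 3.58.1 (trend) in R 4.3.3, with Benjamini-Hochberg adjustment over all genes tested, after tests on simulated data.

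Barcodes with at least 500 genes (6019) were kept. The doublet caller's own threshold marked 6, too few, so the 148 highest scores were removed at an assumed rate of 0.8% per 1000 barcodes. Cells were clustered with Scanpy 1.11.5 (2000 variable genes, 30 components, Leiden resolution 1) and named from marker lists. UMI counts were summed per class, with exact Poisson, binomial and conditional 95% intervals. PCR or library differences are outside these intervals. Cells were thinned to 5000 UMIs for shares, leaving out shallower ones (20 of 451 +/+ and 16 of 499 F/F mesenchymal, 14 of 437 and 34 of 731 ventricular, 80 of 956 and 65 of 1239 erythroid cells).

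The members and lists were chosen with earlier results of these data known. Named were the 5 members, Hand2os1, up to 4 genes per list (the largest changes among those that passed, otherwise the extremes), and the 3 genes most like each member. Promoter sequences are from RefSeq, where 2 of the 5 members matched. Alternatives were another pseudocount, no filter, median-ratio scaling, a replicate block, a Y-linked covariate, 1 fit of all bulk libraries, single libraries left out, sets of 8-week libraries and, for single cells, other filters, clustering and thinning.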

Additional observations from a re-analysis of the deposited data

Results flagged for a closer look

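In the 6 D/D cardiomyocyte libraries, Gata6 in replicate 6 stood apart at 69.18 FPKM, with a gap to the next library of 0.684 of the group's range. Zfpm2 in D/D replicate 2 stood apart at 8.71 FPKM, with a gap of 0.651 of the range. Of 10 combinations of a member and a group of 4 to 10 libraries examined this way, chance gives such a gap in about 1 in 20. The groups of that size were the 8-week +/+ (n = 5) and D/D (n = 6) libraries. Gata5 was higher in F/F in cluster 14, with a log2 ratio of 0.77, one of 4 heart classes with a higher value against 4 with a lower one. In erythroid cells, where Gata5 was near 0, the ratio was 0.77 too, and the lower atrial value changed sign under 3 alternatives. Gata6 was higher in F/F in endothelial cells, with a log2 ratio of 0.44, against lower values in the other 7 heart classes. Gata4 had a log2 difference of 0.37 in the E11.5 bulk hearts, F/F above F/+, and was lower in F/F than in +/+ in the single-cell libraries. The differences between classes, and between bulk and single cells, were not tested.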

How the results depend on the processing

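No member passed the test between genotypes under any alternative run, and all member directions not named here kept their sign. For F/F against F/+ at E11.5, Gata6 went to -0.000735 with median-ratio scaling and -0.0135 with the Y-linked covariate. At E16.5, Gata5 went to -0.14 with that covariate. At 8 weeks, Gata6 and Zfpm1 went to -0.15 and -0.0640 with a replicate block and to -0.0925 and -0.16 with a term for the 2 sets of libraries given by the first principal component. From E16.5 to 8 weeks, Gata4 and Zfpm2 went to 0.13 and 0.33 with median-ratio scaling, and Zfpm2 to 0.14 with a replicate block. Leaving out 1 library gave ranges across 0 for Gata6 (-0.0261 to 0.0887) and Zfpm2 (-0.12 to 0.26) at E11.5, Gata5 at E16.5 (-0.0182 to 0.15), Gata6 (-0.10 to 0.12), Zfpm1 (-0.0254 to 0.21) and Zfpm2 (-0.0205 to 0.15) at 8 weeks, the Zfpm2 interaction (-0.0746 to 0.30) and Zfpm2 from E16.5 to 8 weeks (-0.0734 to 0.0930).

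Genes called at E11.5, 1 as reported, were 2 with the replicate block, 24 in 1 fit of all bulk libraries and 1 to 2 without single libraries. At E16.5, 1 as reported, they were 2 with a pseudocount of 0.1, 3 with the Y-linked covariate and 0 to 2 without single libraries. In the interaction, 1 as reported, they were 2 with that pseudocount, 3 with no filter and 1 to 9 without single libraries. Members called from E16.5 to 8 weeks, 2 as reported, were 1 with median-ratio scaling, 1 against +/+ alone and 1 to 3 without single libraries, and from E11.5 to E16.5 they were 3 to 4 against 3. The cause of these shifts was not tested. In single cells the atrial Gata5 log2 ratio went to 0.0730, 0.13 and 0.0844 with coarser clustering, without doublet removal and with at least 1000 genes per barcode, and the epicardial Gata6 ratio to 0.00632 after thinning. Whether replicate numbers pair the libraries could not be decided from 3 libraries per group. Deviations of same-numbered libraries had correlations of -0.04, -0.02 and 0.08 at E11.5 and -0.08, 0.04 and -0.43 at E16.5. Those of differently numbered libraries ran from -0.09 to 0.11 at E11.5 and from -0.41 to 0.46 at E16.5. The block changed no member's call. Depth is unknown in bulk. In single cells counting error left the Zfpm2 log2 ratio over all cells between -0.20 and 0.44.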
